A study of Homo sapiens with 6 samples.

Results

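The genes of the catecholamine pathway were followed in SH-SY5Y, a neuroblastoma cell line of human origin, after hairpins against CSA or CSB. They are 10 of the 32575 genes listed in the deposited tables, found by their symbol: the synthesis genes TH, DDC, DBH and GCH1, the vesicle carriers SLC18A1 and SLC18A2, the uptake and breakdown genes SLC6A2 and MAOA, and the receptors ADRA2A and ADRA2C. All 10 had an entry and all 10 passed the filter on low values, a group mean of at least 1. ERCC8 encodes CSA and ERCC6 encodes CSB, both proteins of transcription-coupled DNA repair whose loss causes Cockayne syndrome, and messenger RNA was sequenced to ask which transcripts depend on them in a neuronal line. There were 3 groups with 2 libraries each: cells with a control hairpin, labelled WT, cells with a CSA hairpin and cells with a CSB hairpin, both labelled as mutants but called knockdowns here because the protocol describes hairpins. Every group, controls included, received lentivirus, was selected with puromycin and was grown for 2 to 3 weeks. One cell line was used, the hairpin sequences are not used here, and nothing says whether a group's 2 libraries stem from separate transductions. The p-values therefore measure only the spread between these libraries, which may be technical.

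Noradrenaline is made from tyrosine. TH, with tetrahydrobiopterin as cofactor, makes DOPA, DDC turns it into dopamine, and DBH turns dopamine into noradrenaline inside the vesicle. GCH1 opens the synthesis of the cofactor. SLC18A1 (VMAT1) and SLC18A2 (VMAT2) load amines into vesicles, SLC6A2 (the noradrenaline transporter, NET) takes noradrenaline back into the cell, and MAOA degrades it on the mitochondrial outer membrane. ADRA2A and ADRA2C are inhibitory receptors for noradrenaline that also sit on noradrenergic neurons as autoreceptors. Sympathetic neurons and the neuroblastomas related to them are built around this pathway.

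The libraries held 19368272 to 26758162 gene-assigned reads, and mitochondrial transcripts took 5.73 to 6.51% of the values. The hairpin targets followed their labels. ERCC8 read 219 and 217 in control libraries against 61.8 and 57.2 with its hairpin, and ERCC6 read 615 and 593 against 258 and 302 with its own. All 10 sympathetic neuroblast markers were present, with PHOX2A, HAND2 and GATA3 at group means of 10644 to 30105 in each group. The list was not steady: 4 of the 10 rose and 2 fell with the CSA hairpin, beside 8.37% and 10.4% of all genes. With the CSB hairpin 3 rose and 4 fell, CHGA, NEFL and NEFM among the latter, beside 14.8% and 8.86% of all genes. Control replicate 2 stood apart in blood genes: HBB read 373 there and 0 in the other 5 libraries, and HBA1 read 23.1 there and 0 to 1.10 elsewhere. Results are therefore also given without that library. Mesenchymal markers (10 genes such as VIM, FN1 and SNAI2) summed to 5682 and 6151 scaled counts per kb in control cells, 4327 and 4579 with the CSA hairpin and 10946 and 11170 with the CSB hairpin. Of these 10, 0 rose and 7 fell with the CSA hairpin, beside 8.37% and 10.4% of all genes. With the CSB hairpin 7 rose and 1 (YAP1) fell, beside 14.8% and 8.86% of all genes. The part of these markers in the results below was not tested. In bulk RNA fewer cells of a type and less RNA per cell cannot be told apart.

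The scaled count is the deposited value, a gene's reads divided by one size factor per library. Genes with a group mean of at least 1 were tested with limma on log2(scaled count + 1), 28388 in all, and a gene rose or fell where the adjusted p was below 0.05. In the CSA knockdown 6 of the 10 members rose, namely DDC, DBH, GCH1, SLC18A1, SLC6A2 and MAOA, 3 fell, namely TH, ADRA2A and ADRA2C, and SLC18A2 did not pass. Over all genes tested, 18.8% passed in that comparison, 8.37% as higher and 10.4% as lower. The share was larger among well-expressed genes: with a minimum group mean of 50, which TH and SLC18A2 did not reach, 5976 of 13881 passed. The members' median log2 fold change was 0.58, against 0.00 for all genes tested. In the CSB knockdown 3 members rose (SLC6A2, ADRA2A and ADRA2C), 2 fell (DDC and GCH1) and 5 did not pass, beside 23.6% of all genes, 14.8% as higher and 8.86% as lower. With a minimum group mean of 50, 7232 of 13881 genes passed in the CSB knockdown. The members' median was 0.11, against 0.10 for all genes. Both comparisons share the control libraries. Both CSA knockdown libraries lay on the same side of both controls for each of the 10 members, a separation found for 53.5% of all genes. For the CSB knockdown this held for 9 of 10, all but MAOA, beside 58.7% of all genes. Without control replicate 2, 7 members passed in the CSA knockdown, all but TH, MAOA and SLC18A2, and only ADRA2A passed in the CSB knockdown. Over all genes those fits called 5.33% and 7.63%.

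**Figure D1:**
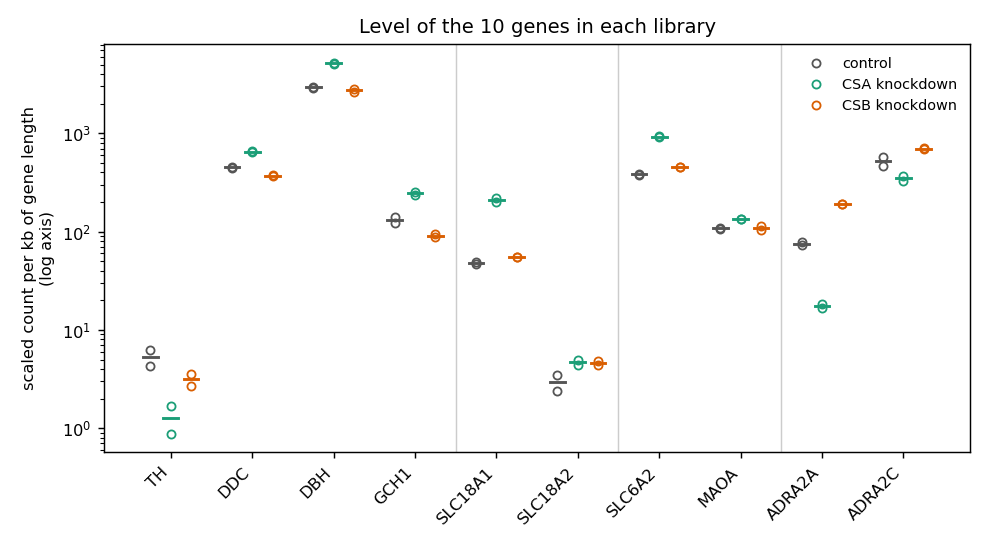
Scaled count per kb of gene length (log axis) of each of the 10 genes in the 6 libraries: circles are libraries, bars are the means of the 2 libraries of a group, and vertical lines separate synthesis, vesicle loading, uptake with breakdown, and receptors. DBH lay highest and TH and SLC18A2 lowest in the control libraries, and ADRA2A spread widest between the knockdowns, from 17.7 to 191 per kb.

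Per kb of gene length, which allows a comparison between genes, the control levels ran from 2935 ± 78.0 (SD, n = 2) for DBH down to 2.96 ± 0.775 for SLC18A2. In order the genes were DBH, ADRA2C (517), DDC (453), SLC6A2 (385), GCH1 (132), MAOA (108), ADRA2A (75.5), SLC18A1 (48.1), TH (5.27) and SLC18A2. No neighbours in this order overlapped in their 2 control libraries. The 2 control libraries of ADRA2C stood at 571 and 464 per kb. DBH ranked 192 among 16089 protein-coding genes with reads in the controls, whereas TH ranked 12952. TH is the rate-limiting enzyme of the pathway.

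TH (chr11:2163929-2171877, minus strand, hg38) was read 14 and 21 times in control cells, 5 and 3 times with the CSA hairpin and 8 and 14 times with the CSB hairpin. As scaled counts these were 13.9 and 20.3, 5.42 and 2.86, and 8.81 and 11.6. Both CSA libraries lay below both CSB libraries, and these below both controls. TH fell in the CSA knockdown by 1.84 ± 0.46 (SE) on the log2 scale (adjusted p = 0.0146). The ratio of reads was 0.237, with an exact 95% interval of 0.0949 to 0.520 that covers counting error only. In the CSB knockdown the log2 difference was -0.68 ± 0.46 (adjusted p = 0.347), and the ratio of reads was 0.605 (0.338 to 1.06). The call in the CSA knockdown was lost when any of the 6 libraries was left out, at adjusted p of 0.0646 without CSA knockdown replicate 1 and 0.176 without control replicate 2. Without control replicate 1 it was 0.103, without CSA knockdown replicate 2 it was 0.127, and without CSB knockdown replicates 1 and 2 it was 0.0956 and 0.0953.

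DDC (chr7:50458436-50565457, minus strand), aromatic amino acid decarboxylase, read 1405 and 1433 in control cells, 2024 and 2065 with the CSA hairpin and 1145 and 1188 with the CSB hairpin. The CSA values were the highest and the CSB values the lowest, with no overlap. DDC rose 1.44-fold in the CSA knockdown (log2 0.53 ± 0.05, adjusted p = 2.16e-05) and fell by 0.28 ± 0.05 on the log2 scale in the CSB knockdown (adjusted p = 0.00191). The fall was not called without control replicate 2 (adjusted p = 0.0647) or without CSB knockdown replicate 1 (0.0545). FIGNL1, on the same strand, overlaps DDC in the annotation and read 1149 to 1276 over the 6 libraries. The 250 bases before one of the 2 DDC starts in the RefSeq table (chr7:50561072-50561321, minus strand, GRCh38.p14) lie outside annotated exons. They are shown because DDC moved in opposite directions in the knockdowns, with the ATTA core of homeodomain factors, on either strand, in capitals.
DDC: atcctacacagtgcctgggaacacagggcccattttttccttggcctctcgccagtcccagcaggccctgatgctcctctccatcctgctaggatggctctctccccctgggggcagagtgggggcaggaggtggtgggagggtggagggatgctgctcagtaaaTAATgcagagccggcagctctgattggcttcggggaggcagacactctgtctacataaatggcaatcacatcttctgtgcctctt
The match lies 85 bases before the start. The 250 bases before the other DDC start, not shown, held 4 matches, at 246, 189, 66 and 64 bases before it. Of 35116 RefSeq promoters, 47.4% held ATTA or its reverse TAAT in their 250 bases, so the match is common.

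DBH (chr9:133636360-133659344, plus strand), the enzyme that makes noradrenaline from dopamine, read 8265 and 7961 in control cells, 13986 and 14528 with the CSA hairpin and 7313 and 7834 with the CSB hairpin. The CSA libraries stood well above the other 4, and the CSB libraries lay just under the controls. DBH rose 1.76-fold in the CSA knockdown (log2 0.81 ± 0.05, adjusted p = 6.2e-07), in every alternative run. With the CSB hairpin the difference was -0.10 ± 0.05 (adjusted p = 0.207). It passed as lower with TMM scaling (adjusted p = 0.0458), with edgeR on the recovered reads (0.0148) and with DESeq2 (0.00299), and with no other alternative. DBH-AS1, an antisense transcript inside the gene, read 212 and 232, 363 and 395, and 181 and 190 in the same order, and the counting strand is not given, so reads of the pair cannot be told apart. A stretch of 30 bases upstream of DBH (chr9:133636182-133636211, plus strand, GRCh38.p14; 181 to 152 bases before the RefSeq start) is shown because it holds the letters TGACG, the core of cyclic AMP response elements, beside 2 ATTA cores, as capitals.
DBH: TGACGtccatgtgtcATTAgtgccaATTAg
TGACG or its reverse CGTCA was present in 21.2% of all 35116 promoter windows. The stretch is part of an annotated UTR of a longer DBH transcript in GENCODE v29.

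GCH1 (chr14:54842008-54902852, minus strand), GTP cyclohydrolase, read 360 and 418 in control cells, 749 and 695 with the CSA hairpin and 258 and 280 with the CSB hairpin. Its order over the groups was that of DDC, with no overlap. GCH1 rose 1.86-fold in the CSA knockdown (log2 0.89 ± 0.09, adjusted p = 2.09e-05) and fell by 0.53 ± 0.09 on the log2 scale in the CSB knockdown (adjusted p = 0.00096). The fall was not called without control replicate 2 (adjusted p = 0.0689), CSB knockdown replicate 1 (0.121) or CSB knockdown replicate 2 (0.0842).

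The wider list of synthesis and cofactor genes held 12 genes, 4 of them members. Against control, 5 rose and 4 fell with the CSA hairpin, beside 8.37% and 10.4% of all genes. The median log2 fold change was 0.12 against 0.00 for all genes. With the CSB hairpin 1 rose and 5 fell, beside 14.8% and 8.86% of all genes, with a median of -0.19 against 0.10. QDPR and PCBD1, which regenerate the cofactor tetrahydrobiopterin after each hydroxylation, had the directions of GCH1. QDPR rose by 0.60 ± 0.07 on the log2 scale in the CSA knockdown and fell by 0.41 ± 0.07 in the CSB knockdown. PCBD1 rose by 0.37 ± 0.07 and fell by 0.31 ± 0.07. With 1 library left out, the rise of PCBD1 was lost in 5 of 6 fits (adjusted p up to 0.153), its fall in 4 (up to 0.217) and the fall of QDPR in 4 (up to 0.0934). PTS and SPR, which complete cofactor synthesis after GCH1 and are named after their values were seen, fell in the CSA knockdown by 0.36 ± 0.07 and 0.35 ± 0.08, calls lost in 2 and 6 of 6 fits with 1 library left out. PNMT, which makes adrenaline from noradrenaline, read 65.6 and 64.6 in control cells, 42.3 and 70.6 with the CSA hairpin and 117 and 94.9 with the CSB hairpin. It passed in the CSB knockdown (log2 0.68 ± 0.23, adjusted p = 0.0484) but not when any 1 of the 6 libraries was left out, at adjusted p of 0.053 to 0.446, nor in 5 of 10 other alternatives.

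SLC18A1 (chr8:20144855-20183206, minus strand), the vesicular amine transporter of chromaffin cells, made the largest rise among the members. It read 193 and 183 in control cells, 861 and 789 with the CSA hairpin and 217 and 218 with the CSB hairpin. The CSA libraries stood apart from the other 4, which lay close together. The rise in the CSA knockdown was 4.38-fold (log2 2.13 ± 0.08, adjusted p = 1.62e-08) and was called in every alternative. With the CSB hairpin the log2 difference was 0.21 ± 0.08 (adjusted p = 0.101).

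SLC18A2 (chr10:117241093-117279430, plus strand), the vesicular transporter of most central monoamine neurons, was read 10 and 15 times in control cells, 19 and 19 times with the CSA hairpin and 18 and 22 times with the CSB hairpin. Both knockdowns lay above both controls and overlapped each other. Neither difference passed (adjusted p = 0.255 and 0.25), and the ratios of reads were 1.57 (exact 95% interval 0.926 to 2.72) and 1.54 (0.912 to 2.65). Both intervals include a ratio of 1, and a change of that size was not detectable at this depth. SLC18A1 took 94.2% ± 1.63 (SD, n = 2) of the per-kb level of the pair in control cells, 97.8% ± 0.0612 with the CSA hairpin and 92.4% ± 0.459 with the CSB hairpin. PDZD8, on the opposite strand, overlaps the 3′ end of SLC18A2 in the annotation and read 728 to 1103. RP11-129M16.4, an antisense transcript inside SLC18A2, read 24.9 and 31.8 in control cells, 31.4 and 39.1 with the CSA hairpin and 13.2 and 23.9 with the CSB hairpin. SLC18A2 itself read 9.95 and 14.5, 20.6 and 18.1, and 19.8 and 18.2. The counting strand is not given, so reads of these overlapping genes cannot be told apart.

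The list of vesicle loading and granule lumen genes held 13 genes, both carriers and DBH's granule neighbours among them. With the CSA hairpin 7 rose and 1 (VGF) fell, a call lost in 5 of 6 fits with 1 library left out and in 7 of 10 other alternatives, with a median log2 fold change of 0.62 against 0.00 for all genes. Of all genes, 8.37% rose and 10.4% fell with the CSA hairpin. With the CSB hairpin 2 of the list rose and 5 fell, beside 14.8% and 8.86% of all genes, with a median of -0.03 against 0.10. CYB561, the granule membrane protein that passes electrons to ascorbate for DBH, read 4165 and 3960 in control cells, 6782 and 7014 with the CSA hairpin and 1568 and 1549 with the CSB hairpin. It rose by 0.76 ± 0.05 in the CSA knockdown (adjusted p = 6.96e-07) and fell by 1.38 ± 0.05 in the CSB knockdown (adjusted p = 1.13e-08). Of the granins, acidic proteins that pack amines in the granule, CHGA and CHGB were among those that passed in both knockdowns. CHGA rose by 0.71 ± 0.06 and fell by 2.04 ± 0.06, and CHGB rose by 1.09 ± 0.06 and fell by 1.13 ± 0.06. SCG3 stood at -0.01 ± 0.06 in the CSA knockdown and fell by 1.44 ± 0.06 in the CSB knockdown. DBH, the enzyme of the same granules, stood at -0.10 ± 0.05 in the CSB knockdown.

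**Figure D2:**
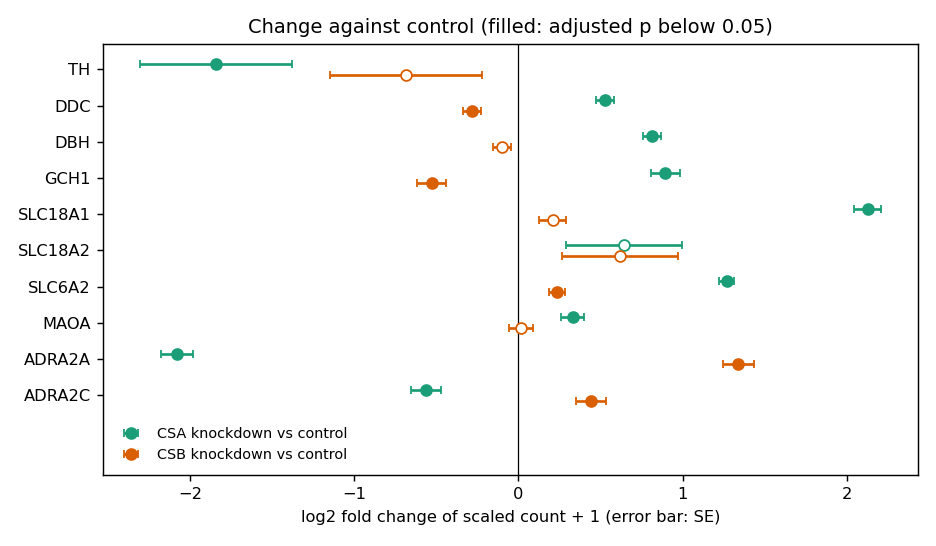
Log2 fold change of scaled count + 1 against control with its standard error for the 10 genes, with filled symbols where the adjusted p was below 0.05. For the CSA knockdown 6 genes lie right of zero and 3 left of it as filled symbols, and ADRA2A and ADRA2C are the only members filled on opposite sides that fell in the CSA and rose in the CSB knockdown.

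SLC6A2 (chr16:55655604-55706192, plus strand), the noradrenaline transporter and the route by which the radiotracer MIBG enters neuroblastoma cells, read 2077 and 2134 in control cells, 4989 and 5145 with the CSA hairpin and 2484 and 2477 with the CSB hairpin. The 3 groups did not overlap, with the CSB libraries slightly and the CSA libraries far above the controls. The rise in the CSA knockdown was 2.41-fold (log2 1.27 ± 0.05, adjusted p = 1.42e-08). In the CSB knockdown it was 1.18-fold (log2 0.24 ± 0.05, adjusted p = 0.00342), and DESeq2 gave an adjusted p of 0.0565. It was not called without control replicate 1 (0.082) or 2 (0.0613), or without CSB knockdown replicate 1 (0.0723) or 2 (0.0699). An entry of unknown type at its 3′ end on the same strand, RP11-481F24.3, read 529 and 523, 1168 and 1097, and 569 and 547. The dopamine transporter SLC6A3 was at 0 or 1 read in each library, where no fold is given.

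MAOA (chrX:43654907-43746824, plus strand), a mitochondrial amine oxidase, read 607 and 585 in control cells, 751 and 747 with the CSA hairpin and 571 and 634 with the CSB hairpin. The CSA libraries were the highest, and the CSB libraries spanned the controls. MAOA rose 1.26-fold in the CSA knockdown (log2 0.33 ± 0.07, adjusted p = 0.00549), whereas the CSB difference was 0.02 ± 0.07 (adjusted p = 0.913). The rise was not called without control replicate 1 (0.0974) or 2 (0.134), or without CSA knockdown replicate 1 (0.103) or 2 (0.101). Its paralog MAOB, on the same chromosome, read 513 and 558, 332 and 330, and 286 and 285, and fell in both knockdowns, by 0.69 ± 0.08 (adjusted p = 5.72e-05) and 0.90 ± 0.08 (adjusted p = 6.19e-06). MAOA thus took 36.8% ± 1.97 (SD, n = 2) of the per-kb level of the pair in control cells, 54.2% ± 0.0132 with the CSA hairpin and 52.4% ± 1.89 with the CSB hairpin. Neither knockdown overlapped the controls, but 2 libraries against 2 cannot give an exact permutation p below 0.333. The per-kb sum of the pair was 293 ± 8.0 in control cells, 250 ± 0.983 with the CSA hairpin and 208 ± 7.87 with the CSB hairpin.

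Of 13 uptake and breakdown genes, 11 had an entry and 10 were tested. In the CSA knockdown 2 rose, the members SLC6A2 and MAOA, and 3 fell, beside 8.37% and 10.4% of all genes. In the CSB knockdown 2 rose and 2 fell, beside 14.8% and 8.86% of all genes. Those that fell there were MAOB and AKR1A1, the latter by 0.21 ± 0.06 (adjusted p = 0.0307), a call lost in 4 of 6 fits with 1 library left out. The list's medians were -0.04 and -0.13, against 0.00 and 0.10 for all genes. The monoamine carrier SLC29A4 rose in the CSB knockdown by 0.18 ± 0.06, and the aldehyde-handling enzymes ADH5 and AKR1A1 fell in the CSA knockdown by 0.27 ± 0.05 and 0.21 ± 0.06. With 1 library left out, these calls were lost in 4, 2 and 5 of 6 fits, at adjusted p up to 0.293, 0.0763 and 0.223, and that of SLC29A4 also in 5 of 10 other alternatives.

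Both alpha-2 receptors among the members fell in the CSA and rose in the CSB knockdown. ADRA2A (chr10:111077163-111080907, plus strand), which couples to inhibitory G proteins, read 292 and 273 in control cells, 69.4 and 62.9 with the CSA hairpin and 719 and 714 with the CSB hairpin. The 3 groups were widely apart. ADRA2A fell by 2.08 ± 0.10 on the log2 scale in the CSA knockdown (adjusted p = 4.95e-08), to 0.234 of the control level, and rose 2.53-fold in the CSB knockdown (log2 1.34 ± 0.10, adjusted p = 1.38e-06). Both calls held in each of the 16 alternatives, with a highest adjusted p of 0.0156 for the fall and 0.0332 for the rise.

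ADRA2C (chr4:3766348-3768526, plus strand), the related receptor, read 1243 and 1012 in control cells, 710 and 811 with the CSA hairpin and 1539 and 1508 with the CSB hairpin. Its groups were in the order of those of ADRA2A, without overlap but closer together. ADRA2C fell by 0.56 ± 0.09 in the CSA knockdown (adjusted p = 0.000849) and rose by 0.44 ± 0.09 in the CSB knockdown (adjusted p = 0.00361). The fall was called without control replicate 2 (adjusted p = 0.0281). It was not called without control replicate 1 (0.0886), CSA knockdown replicate 1 (0.137) or 2 (0.0777), or CSB knockdown replicate 1 (0.103) or 2 (0.104). The rise was called without control replicate 1 (0.0335), and not without control replicate 2 (0.141), CSA knockdown replicate 1 (0.0793) or 2 (0.0799), or CSB knockdown replicate 1 (0.229) or 2 (0.204).

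The windows before the RefSeq starts of the 2 receptor genes are shown because both receptors fell in the CSA knockdown, in which DDC, DBH and GCH1 rose. ADRA2A is chr10:111076779-111077028 and ADRA2C chr4:3766135-3766347 (the 213 bases of its window that lie outside annotated UTRs), both plus strand, GRCh38.p14. Capitals mark the GC box (GGGCGG), the E-box (CACGTG), the TGACG core and the TATA box (TATAAA).
ADRA2A: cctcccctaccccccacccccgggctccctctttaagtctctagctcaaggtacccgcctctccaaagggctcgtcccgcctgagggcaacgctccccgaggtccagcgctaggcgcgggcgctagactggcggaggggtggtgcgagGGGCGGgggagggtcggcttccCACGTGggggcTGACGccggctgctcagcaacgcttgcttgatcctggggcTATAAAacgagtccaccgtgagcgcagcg
ADRA2C: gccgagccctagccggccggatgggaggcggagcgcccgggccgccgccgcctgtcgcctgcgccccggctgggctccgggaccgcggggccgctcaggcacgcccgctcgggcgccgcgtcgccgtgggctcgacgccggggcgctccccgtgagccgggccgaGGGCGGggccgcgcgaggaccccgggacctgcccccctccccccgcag
In ADRA2A the TATA box begins 29 bases before the start, TGACG 69, the E-box 80 and the GC box 102 bases before it. ADRA2C holds 1 GC box, 85 bases before the start, and none of the other 3. GGGCGG on either strand was found in 42.6% of the 35116 promoter windows, CACGTG in 6.34% and TATAAA on the gene's strand in 6.80%. The GC content of the full windows was 68.8% for ADRA2A and 84.8% for ADRA2C, beside 55.6% for DBH. Of the 10 genes, 6 were matched to a promoter entry that could be used, and TH, GCH1 and SLC6A2 had none. SLC18A1 was left out of this search, as were all promoter entries on its chromosome.

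ADRA2A took 12.8% ± 1.08 (SD, n = 2) of the per-kb level of the alpha-2 receptors in control cells, 4.83% ± 0.725 with the CSA hairpin and 21.3% ± 0.0782 with the CSB hairpin. ADRA2C took 86.9% ± 1.06, 94.8% ± 1.13 and 77.7% ± 0.427. Their summed level was 595 ± 79.2 scaled counts per kb in control cells, 368 ± 30.1 with the CSA hairpin and 900 ± 8.03 with the CSB hairpin. The groups did not overlap in any of these 3 quantities, where the smallest exact p is again 0.333. ADRA2B, the third of these receptors, was read 9 and 7 times in control cells, 7 times and once with the CSA hairpin and 22 and 47 times with the CSB hairpin. It passed narrowly in the CSB knockdown (log2 1.85 ± 0.62, adjusted p = 0.04996) and was not called in 9 of 14 alternatives, the leaving out of 5 of the 6 libraries among them, with adjusted p up to 0.446.

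**Figure D3:**
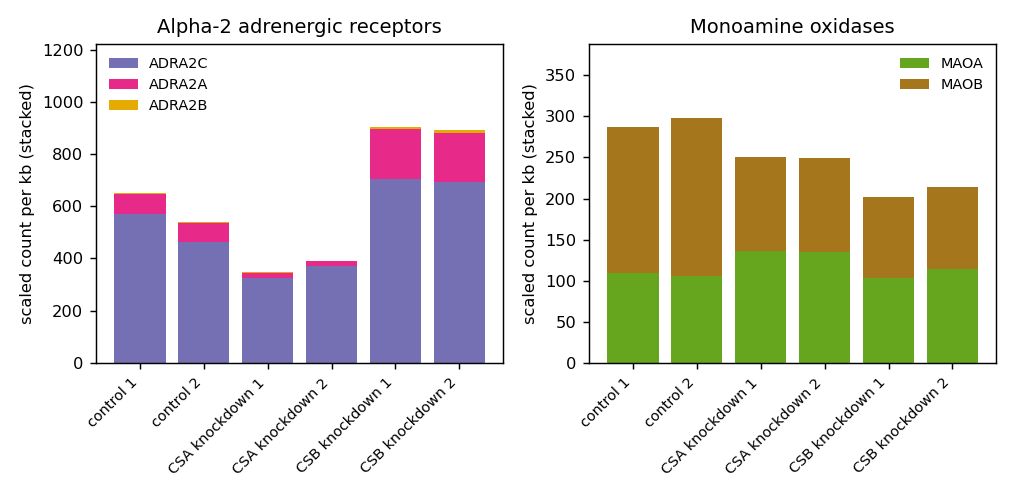
Stacked scaled counts per kb in each library for the alpha-2 adrenergic receptors ADRA2C, ADRA2A and ADRA2B (left) and the monoamine oxidases MAOA and MAOB (right). The receptor bars are lowest in the CSA knockdown (347 and 389 in sum) and highest in the CSB knockdown (906 and 894), and the oxidase bars stand at 287 and 299 in control cells but at 202 and 214 with the CSB hairpin, with most of the gap in the MAOB segment.

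The alpha-1 receptors were scarce. ADRA1A and ADRA1D were at 0 to 5 reads in each library. ADRA1D did not pass against control. Of 9 adrenergic receptor genes, 6 had an entry and 5 were tested. The CSA knockdown had 0 that rose and 2 that fell, beside 8.37% and 10.4% of all genes. In the CSB knockdown 3 rose and 0 fell, beside 14.8% and 8.86% of all genes. The members are 2 of the called receptors in each case. Of the dopamine receptors, DRD2 rose by 0.41 ± 0.13 in the CSA knockdown (adjusted p = 0.0375, and 0.0806 to 0.348 with any 1 library left out) and fell by 0.72 ± 0.13 in the CSB knockdown (adjusted p = 0.00113, but not in 5 of 6 fits with 1 library left out, at up to 0.103). DRD4 rose by 0.87 ± 0.17 in the CSB knockdown (adjusted p = 0.00215), lost in 4 of those fits (up to 0.136).

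The list of alpha-2 receptor coupling genes held the inhibitory G protein subunits, receptor kinases, arrestins, RGS proteins, potassium channels and adenylyl cyclases. Of 28 tested, 5 rose and 9 fell in the CSA knockdown, beside 8.37% and 10.4% of all genes. In the CSB knockdown 7 rose and 9 fell, beside 14.8% and 8.86% of all genes. The list's medians were -0.01 and 0.03 against 0.00 and 0.10 for all genes. KCNJ3, a channel subunit opened by G proteins, read 160 and 180 in control cells, 50.9 and 63.9 with the CSA hairpin and 251 and 205 with the CSB hairpin. It fell by 1.56 ± 0.15 in the CSA knockdown (adjusted p = 1.71e-05), and the CSB difference was 0.42 ± 0.15 (adjusted p = 0.0705). RGS4, which shortens G protein signals, fell in both, by 0.89 ± 0.06 and 0.46 ± 0.06. The adenylyl cyclases ADCY5 and ADCY8 rose in the CSB knockdown, by 1.12 ± 0.11 and 1.18 ± 0.37, the second from 8 to 29 reads per library. With 1 library left out, the CSB calls were lost in 4 of 6 fits for RGS4, 1 for ADCY5 and 6 for ADCY8 (adjusted p up to 0.188).

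**Figure D4:**
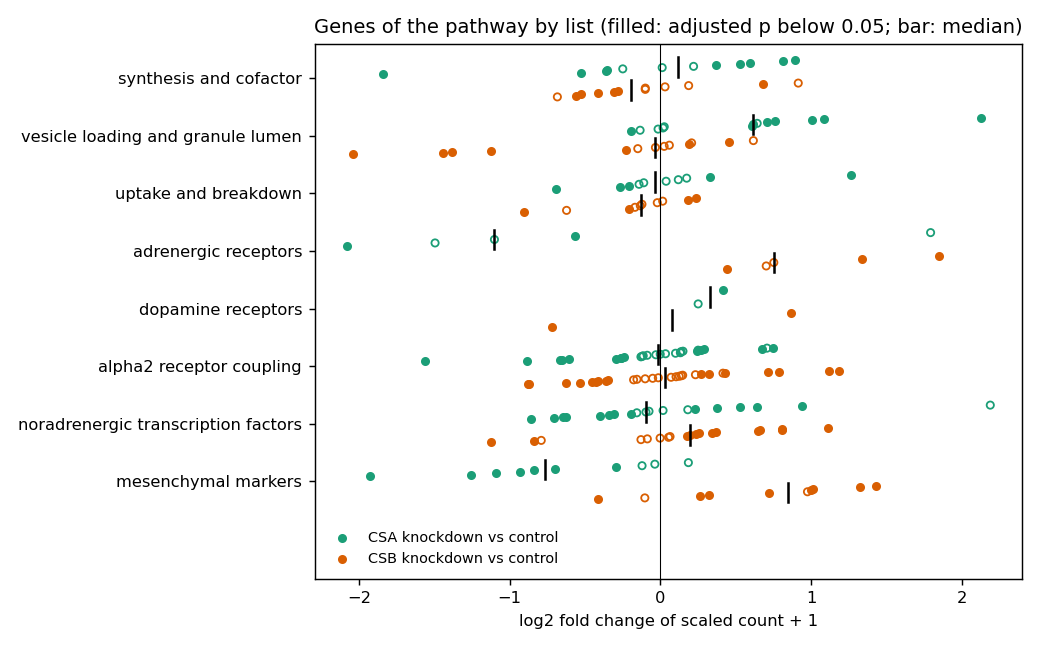
Log2 fold change against control of the genes of each list, members included, with filled symbols where the adjusted p was below 0.05 and a bar at the list's median. The medians of the granule list are 0.62 and -0.03 and those of the mesenchymal markers -0.77 and 0.85 in the CSA and CSB knockdown.

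Set against each other, the knockdowns differed in 8 of the 10 members: ADRA2A and ADRA2C were higher in the CSB knockdown, and DDC, DBH, GCH1, SLC18A1, SLC6A2 and MAOA were lower. Over all genes tested 29.4% differed, 18.1% as higher and 11.3% as lower in the CSB knockdown. With a minimum group mean of 50, 8079 of 13881 genes differed. The widest gap was that of ADRA2A, 10.8-fold higher in the CSB knockdown (log2 3.42 ± 0.10, adjusted p = 2.16e-10), with ADRA2C 2.00-fold higher (adjusted p = 3.69e-06). SLC18A1 stood at a log2 difference of -1.92 ± 0.08 (adjusted p = 7.54e-09), and GCH1 stood at -1.42 ± 0.09 (adjusted p = 1.63e-07). SLC6A2 stood at -1.03 ± 0.05, DBH at -0.91 ± 0.05 and DDC at -0.81 ± 0.05. MAOA had the smallest called difference, -0.31 ± 0.07 (adjusted p = 0.00446). It was not called without CSA knockdown replicate 1 (0.0841) or 2 (0.0757), or without CSB knockdown replicate 1 (0.0609). TH was 1.16 ± 0.46 higher in the CSB knockdown, which did not pass (adjusted p = 0.0848), and SLC18A2 differed by -0.03 ± 0.35 (adjusted p = 0.971). No member but SLC18A2 overlapped between the knockdowns, beside 60.2% of all genes without overlap.

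A list of 19 transcription factors of the noradrenergic program was read beside the members. Of these, 5 rose and 8 fell in the CSA knockdown, beside 8.37% and 10.4% of all genes, with a median of -0.10 against 0.00. In the CSB knockdown 11 rose and 2 fell, beside 14.8% and 8.86% of all genes, with a median of 0.20 against 0.10. PHOX2A, a homeodomain factor that specifies noradrenergic neurons, differed by 0.02 ± 0.05 in the CSA knockdown and rose by 0.34 ± 0.05 in the CSB knockdown (adjusted p = 0.000526). GATA3 fell by 0.31 ± 0.05 and rose by 0.18 ± 0.05, as ADRA2A and ADRA2C did, and HAND2 rose by 0.23 ± 0.05 in the CSA knockdown. DACH1 rose by 0.64 ± 0.12 and fell by 1.13 ± 0.12, the order of DDC and GCH1. MYCN rose by 1.12 ± 0.13 in the CSB knockdown. With 1 library left out, the call was lost in 6 of 6 fits for HAND2, 5 for the rise of DACH1, 4 for the rise of GATA3, 2 for its fall, 3 for PHOX2A and 2 for MYCN. The rise of GATA3 was also lost in 4 of 10 other alternatives, at adjusted p up to 0.175 and a log2 fold change down to 0.09.

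By the distance between mean-centred log2 profiles over the 6 libraries, given as a description among 13397 genes with a mean of at least 50, the gene nearest to DBH was LMBRD1 (distance 0.0789). Those nearest to DDC were SYT11 (0.0701) and RND2 (0.0858), and those nearest to SLC18A1 were GRIA2 (0.225) and MYH15 (0.351). ADRA2A lay nearest to NECAB2 (0.0922) and CACNA1G (0.25). NECAB2 had means of 381, 87.5 and 966 in the control, CSA and CSB groups, beside 283, 66.2 and 716 for ADRA2A. The nearest to ADRA2C were CD83 (0.112) and NPC2 (0.155), to SLC6A2 DUSP8 (0.146) and FBP1 (0.167), to MAOA BSN (0.0606) and WWP2 (0.0644), and to GCH1 RP5-862P8.2 (0.165) and GRIA4 (0.242). The members themselves were left out as candidates, and none of these neighbours was another gene of the lists used here.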

How the data were processed

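The value columns carry the name FPKM per the file headers, yet gene length plays no part in them. They are a signal that the authors formed from gene read counts, with one size factor for each library. In each of the 6 libraries, 100.0% of the values came out as whole numbers after division by the smallest one (tolerance 0.01), so reads per gene were recovered in this way. A gene without an entry in a library was taken as 0. Per the submitters' processing notes, the tools were HISAT2 2.0.4 and FastQC and the build was hg38. The counting tool, strand setting and annotation were not given in the sources used here, so overlapping genes are uncertain. Levels per kb used the gene lengths of the deposited tables.

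A linear model with a trend in the prior variance (limma 3.58.1 in R 4.3.3) was fitted to log2(scaled count + 1), with all 6 libraries in one fit and 3 residual degrees of freedom. The pseudocount of 1 understates the change of low genes. The filter kept 28388 genes whose mean was 1 or more in any group, and p-values were adjusted by Benjamini-Hochberg over all of them. Each adjusted p comes from this fit unless another tool is named. Alternatives were other pseudocounts and filters, TMM and upper quartile scaling, a fit of only the groups compared, a replicate block, edgeR 4.0.16 and DESeq2 1.42.0 on the recovered reads, and leaving out each library. On the recovered reads edgeR called 6119 genes in the CSA knockdown and 7268 in the CSB knockdown, and DESeq2 called 4112 and 5064. The fits were tested on simulated data with 200 changed genes.

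Of 166 list genes, 149 had an entry in the tables, and the others are not analysed here. A few further genes of the lists are not reported here. Named genes are the members, the hairpin targets, some fixed pathway genes and, per list, at most the 4 other genes with the largest called change. The members and lists were chosen with earlier results of these data known, as was the design of the tests. Promoter sequences and starts are from RefSeq (GRCh38.p14), and exons and UTRs from GENCODE v29. The 2 libraries of a group differed beyond counting noise, at a chi-square per degree of freedom of 2.13 to 5.98, and were counted separately.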

Additional observations from a re-analysis of the deposited data

How the results depend on the processing

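Over the 10 members, 3 comparisons and their alternatives, 436 of 472 values kept their side of the threshold. Of the others, 33 lost the call and 3 gained it (DBH in the CSB knockdown). No value that passed in either fit changed direction, but small differences that passed in neither could change sign. MAOA in the CSB knockdown, at 0.02 on the log2 scale with all libraries as deposited, went down to -0.07 among the alternatives. With 1 library left out, the members called ranged from 6 to 7 in the CSA knockdown, 1 to 4 in the CSB knockdown and 7 to 8 between the knockdowns. The genes called overall ranged from 1512 to 2882, from 1907 to 5451 and from 4003 to 6268, where fewer libraries leave 2 residual degrees of freedom. The lone library of a group was then assumed to vary like the others. With the replicate block, the calls numbered 5259, 6575 and 8258 genes and 9, 5 and 8 members. Same-numbered libraries share only a number, with deviations from the group means correlated at -0.04 to -0.02. Scaling set the balance of calls: in the CSB knockdown 62.5% of called genes were higher as deposited, 48.2% with TMM, 50.1% with edgeR and 43.3% with DESeq2, and between the knockdowns 61.5% became 48.9%, 48.9% and 48.2%. Their medians over all genes moved by less than 0.1 on the log2 scale. With a minimum group mean of 50, TH and SLC18A2 were not tested. With 3 to 22 reads per library for these genes, depth limits what can be said of them.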

Other observations

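Markers of other transmitters were also read. CHAT, which makes acetylcholine, read 55.7 and 34.7 in control cells, 79.1 and 88.7 with the CSA hairpin and 18.7 and 25.6 with the CSB hairpin, and rose by 0.91 ± 0.27 and fell by 0.98 ± 0.27 on the log2 scale. Both calls were lost in 6 of 6 fits with 1 library left out, at adjusted p up to 0.296 and 0.289. The vesicular acetylcholine transporter SLC18A3 fell in the CSB knockdown by 0.63 ± 0.06 and differed by 0.08 ± 0.06 in the CSA knockdown. Of the 4 cholinergic markers, 2 fell in the CSB knockdown, these 2, and the other 2 rose, beside 8.86% and 14.8% of all genes. The glutamate and GABA genes SLC17A6, SLC32A1 and GAD1 were at 0 to 8.81 in each library. Of the 5 genes of their list that were tested, 1 rose and 1 fell in the CSB knockdown, neither of them named here, beside 14.8% and 8.86% of all genes. In a list of genes that act on TH, REST, a repressor of neuronal genes, fell by 0.71 ± 0.07 in the CSA knockdown and rose by 0.26 ± 0.07 in the CSB knockdown, a rise lost in 6 of 6 fits with 1 library left out (adjusted p up to 0.236) and in 2 of 10 other alternatives. The nuclear receptor NR4A3 rose by 2.23 ± 0.17 in the CSB knockdown, EGR1 fell by 0.85 ± 0.08 in the CSA knockdown, and the protein kinase A subunit PRKACB fell by 0.90 ± 0.05 in the CSB knockdown.

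IGF2 lies near TH on the minus strand of chromosome 11 in the deposited tables, and is named after its values were seen. It read 718 and 613 in control cells, 3586 and 3770 with the CSA hairpin and 50.6 and 47.9 with the CSB hairpin. TH in the same libraries read 13.9 and 20.3, 5.42 and 2.86, and 8.81 and 11.6.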
